A study of Mus musculus with 3 samples.

Results

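The core pluripotency genes examined here were 10 genes on which self-renewal of mouse embryonic stem cells (ESCs) depends or by which it is recognised, and they were set against all 22350 protein-coding genes of chromosomes 1 to 19 and X. The members were Pou5f1, Nanog, Sox2, Klf2, Klf4, Klf5, Esrrb, Zfp42, Prdm14 and Tdgf1, chosen by name with earlier results of these data known. The series held 3 ChIP-Seq libraries, 1 per group, each given as lists of enriched regions called at thresholds of 1e-9 and 1e-12. For the H2A.Z WT and AP3 libraries, lines derived from KH2 ESCs were used, each carrying a YFP-tagged transgene behind a CMV promoter under doxycycline control (1 µg/ml), and the cells were sorted for YFP, and depleted of endogenous H2A.Z with a hairpin against its 3′ untranslated region. AP3 carries the substitutions G92N, D97N and S98K, which give the acidic patch of H2A.Z the residues of canonical H2A. Both were precipitated with an antibody against GFP, so only the tagged protein was profiled, at whatever level the transgene was expressed. The H3K27me3 library came from ESCs labelled wild type, without a transgene named in its genotype. The labels give the strain V6.5 for all 3 libraries, although the transgenic lines are described as KH2. All cells were grown in serum with LIF on irradiated fibroblasts, which were left out of the final passage.

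H2A.Z is a histone variant that replaces H2A in nucleosomes beside the start sites of many genes, both active genes and the silent but inducible genes that also carry H3K27me3. H3K27me3 is the repressive mark laid down by Polycomb complex PRC2, and in ESCs it covers regulators of later lineages. The members are genes of the ESC state itself. Pou5f1 (the factor OCT4), Sox2 and Nanog form the central transcription factor circuit of ESCs. Klf2, Klf4, Klf5 and Esrrb sustain the naive state, and Prdm14 restrains differentiation signals. Zfp42 (REX1) is a marker of the naive state, and Tdgf1 (CRIPTO) is a coreceptor for NODAL. The comparison asked which of these genes carried H2A.Z WT, whether H2A.Z AP3 lay at the same places, and which of them lay in H3K27me3.

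At 1e-9 the H2A.Z WT list had 78359 regions over 28.3 Mb, that of H2A.Z AP3 had 14599 over 3.5 Mb, and that of H3K27me3 had 16970 over 9.32 Mb. The number of reads behind them is unknown, and deeper reads pass a fixed threshold at more places, so a gene outside a list is not shown to lack the protein or mark. The 1e-12 lists were not subsets of the 1e-9 lists: 8.05% of the 1e-12 regions of H2A.Z WT, 23.4% of those of H2A.Z AP3 and 3.24% of those of H3K27me3 shared no base with the 1e-9 list of their library. A region in both lists is therefore not simply one that passed a stricter cut. With 1 library per group there was no replicate error and no test between groups. Transcripts were not measured in these libraries, so the ESC identity of the cells could not be checked on expression. All 15 lineage regulators examined had an H3K27me3 region at a start, and so did 6 of 10 fibroblast markers, against 18.2% of all genes. H2A.Z WT lay at 8 of the 10 fibroblast markers, against 61.7% of all genes. The part of residual feeder cells in any of the values was not tested.

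Members were mostly outside the H2A.Z WT list. Within 2 kb of an annotated transcript start, 2 of 10 members had an H2A.Z WT region at 1e-9, Esrrb and Prdm14, where 61.7% of all genes had one. H2A.Z AP3 was listed at 1 of 10, Klf2, against 23.2% of all genes. H3K27me3 was listed at 2 of 10, again Esrrb and Prdm14, against 18.2% of all genes. The length covered at the starts had a median of 0 bp over the members in each library, whereas the median over all genes was 300 bp for H2A.Z WT and 0 bp for the others. At 1e-12 each library was listed at 2 of 10 members, where H2A.Z WT was at 60% of all genes, H2A.Z AP3 at 18.8% and H3K27me3 at 15.7%, the added H2A.Z AP3 call being 25 bp at Prdm14.

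The 3 calls together sorted the members into 3 patterns. Pou5f1, Nanog, Sox2, Klf4, Klf5, Zfp42 and Tdgf1 (7 members) had no region of any library at a start, as had 36.3% of all genes. Esrrb and Prdm14 had H2A.Z WT with H3K27me3 and without H2A.Z AP3, a pattern held by 9.39% of all genes. Klf2 had H2A.Z AP3 alone, as did 263 genes or 1.18%. No member had H2A.Z WT alone (30.4% of all genes), H2A.Z WT with H2A.Z AP3 (14%) or all 3 (7.9%) at 1e-9.

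**Figure D1:**
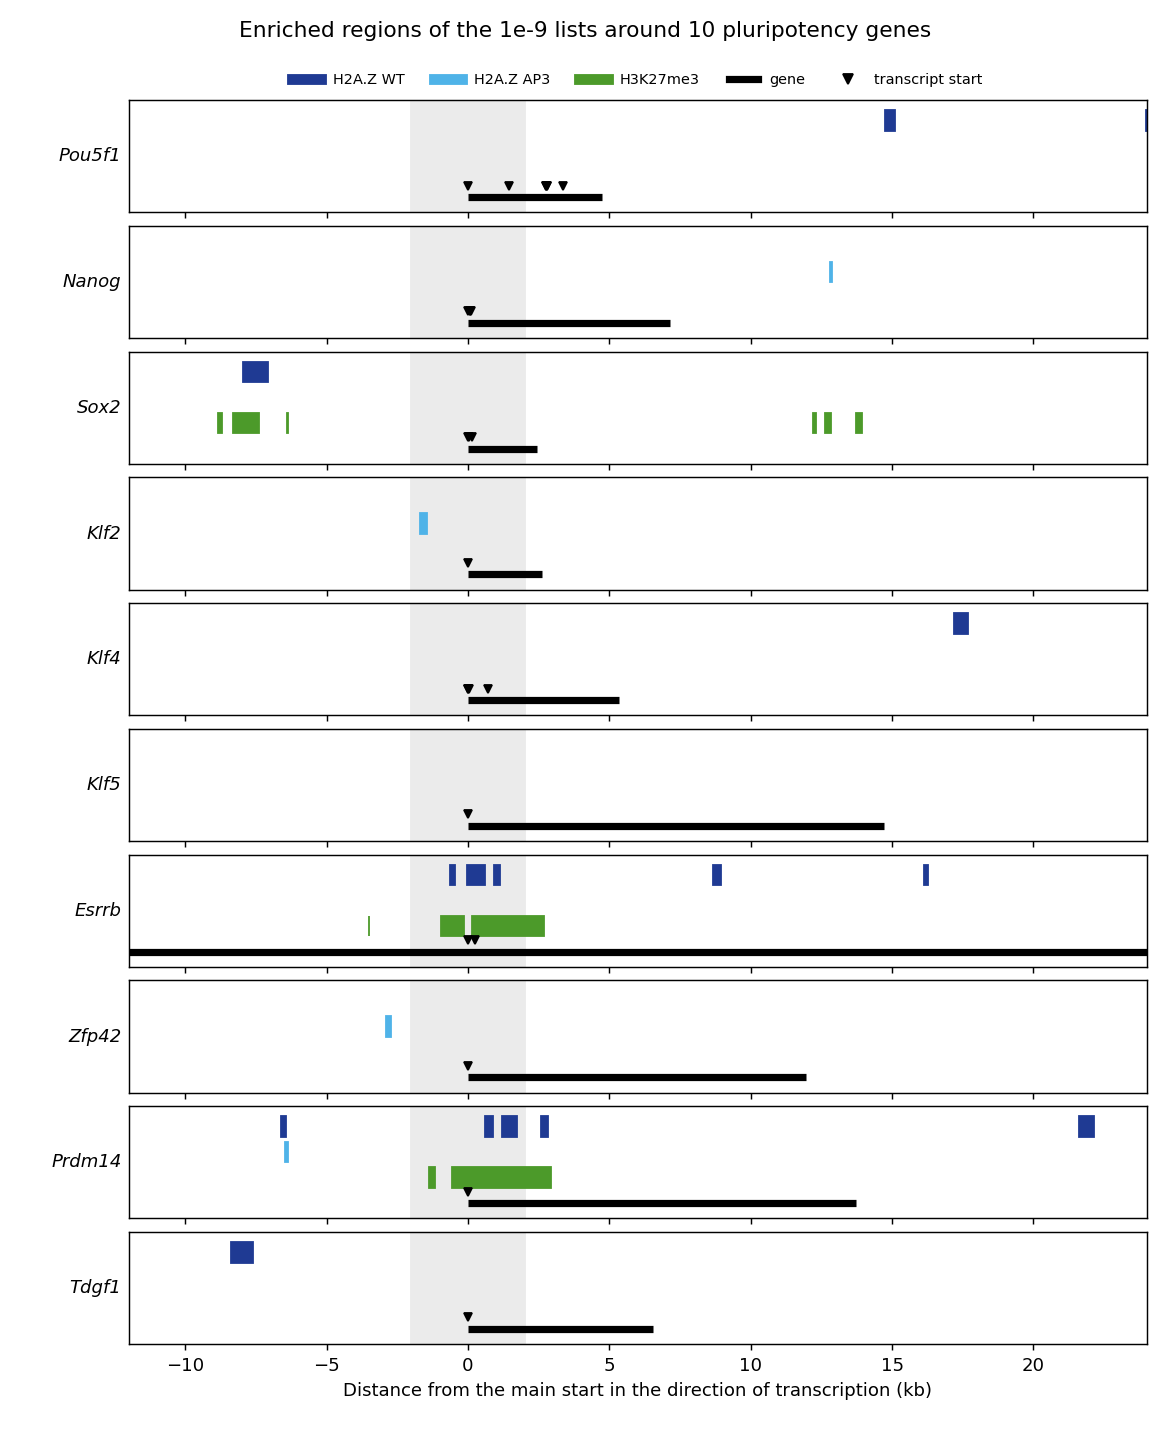
Enriched regions of the 1e-9 lists from 12 kb before to 24 kb after the main start of each member, in kb along the direction of transcription, in 1 row per library (bars) above the gene (black line) and its annotated starts (triangles), with the 2 kb each side of the main start shaded. The shaded windows hold H2A.Z WT and H3K27me3 only at Esrrb and Prdm14 and H2A.Z AP3 only at Klf2, and the nearest H2A.Z WT regions of Pou5f1 and Klf4 appear beyond the ends of those genes.

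Widening the search to each gene with 10 kb of flank brought in regions that lay away from the starts. H2A.Z WT was then found at 4 of 10 members (75.1% of all genes), Sox2, Esrrb, Prdm14 and Tdgf1, with 19 regions in all. H2A.Z AP3 was found at 5 of 10 (39.3%), Nanog, Klf2, Esrrb, Zfp42 and Prdm14, with 1 region each. H3K27me3 was found at 3 of 10 (24.9%), Sox2, Esrrb and Prdm14, with 12 regions. Pou5f1, Klf4 and Klf5 had no region of any library in either threshold list. At 1e-12 H2A.Z WT was found at 4 of 10 members (72.8% of all genes), H2A.Z AP3 at 4 of 10 (32.6%) and H3K27me3 at 3 of 10 (21.3%).

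Pou5f1 encodes OCT4, the POU factor without which the inner cell mass does not keep its identity. It lies at chr17:35642982-35647721 (mm9, plus strand), and 7 transcript starts are annotated, the farthest 3348 bp into the gene. None of the 7 starts had a region of any of the 6 lists. The nearest H2A.Z WT region, 375 bp long, lay 11396 bp from its closest start, beyond the end of the gene and 895 bp from a start of the neighbour Cchcr1. The nearest H2A.Z AP3 region was 25346 bp away and the nearest H3K27me3 region 35932 bp away. The gap was local, since 11 H2A.Z WT regions lay within 50 kb of the main start, where the median over all genes was 4.

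The study listed a primer pair named Pou5f1-CR for PCR and describes it as a coding region of Pou5f1. Its sequences are shown because they were found before the gene, outside its annotated transcripts. They matched mm9 at chr17:35634834-35634984, a product of 151 bp between 8148 and 7998 bp before the main start, and no region of the 3 libraries covered it.
Pou5f1-CR forward: ctgctgagccacactccata
Pou5f1-CR reverse: tgtgtggaggagtgaaacca
The other pair was listed under the name Oct4/ Pou5f1, and only 1 of its primers matched chromosome 17.
Oct4/ Pou5f1 reverse: ccagtcacacccaacctctt
Oct4/ Pou5f1 forward: gatgtgggagactggaggaa
The reverse primer matched at chr17:35643838-35643857, 856 to 875 bp inside the gene, whereas the forward primer matched only at chr8:102441456-102441475 and is also listed as the reverse primer of a gene desert control. No product could be placed for that pair.

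Nanog encodes a homeodomain factor that holds ESCs in the naive state. It lies at chr6:122657507-122664651 (plus strand), with 4 starts inside 104 bp, none of them in any list. The nearest H2A.Z WT region was 36857 bp away, farther than at most genes, since 16.5% of all genes had theirs at least as far. A region of H2A.Z AP3 lay 12690 bp beyond the last start (chr6:122670301-122670375), downstream of the gene, and it was short (75 bp), shared no base with H2A.Z WT and was not in the 1e-12 list. H3K27me3 came no closer than 82132 bp, 1053 bp from a start of Dppa3.

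Sox2 encodes the HMG-box partner of OCT4. It lies at chr3:34548927-34551383 (plus strand), inside an intron of the long noncoding gene Sox2ot, and its 3 starts had no region. An H2A.Z WT region of 875 bp lay 7077 to 7951 bp before the main start (chr3:34540976-34541850), of which 825 bp were also in the 1e-12 list. An H3K27me3 region of 950 bp lay over most of it, at 7377 to 8326 bp, and 575 of the 875 bp (65.7%) were shared. The site held 5.37 CpG per 100 bp, against a median of 2.67 over all H2A.Z WT regions, and it was 3550 bp from the closest annotated start of Sox2ot. Another 3 H3K27me3 regions of 125, 25 and 125 bp lay in the flanks, none of them in the 1e-12 list. H2A.Z AP3 was not listed in the flanks, the nearest region being 14827 bp from a Sox2 start.

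Nanog and Sox2 are known targets of OCT4 and SOX2, which bind side by side on a composite of their recognition sequences. The letters CATTGT, any 1 base, then ATGCA were searched on both strands, and they occurred within 2 kb of the main start in 47 genes (0.21%), 1 of them a member, Nanog. Sox2 had a match outside that window. Both matches are shown with 7 bases each side, the searched letters in capitals, because each lies in sequence that no list covered.
Nanog: ccatggaCATTGTAATGCAaaagaag
Sox2: gggcagcCATTGTGATGCAtatagga
The Nanog stretch is chr6:122657427-122657452 (minus strand), and the match in it (chr6:122657434-122657445) lay 62 to 73 bp before the main start, 36784 bp from the nearest H2A.Z WT region. The Sox2 stretch is chr3:34552964-34552989 (plus strand), and the match in it (chr3:34552971-34552982) lay 4044 to 4055 bp after the main start, 11121 bp from H2A.Z WT and 8144 bp from H3K27me3. These are matches of letters and say nothing about binding.

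The Krüppel-like factors KLF2, KLF4 and KLF5 are zinc finger factors that act downstream of LIF and other signals and can stand in for each other. Klf2 lies at chr8:74842932-74845555 (plus strand), and H2A.Z AP3 was listed 1457 to 1706 bp before its only start (chr8:74841226-74841475, 250 bp). That region was also in the 1e-12 list, as 150 bp. Among all genes, 10.1% had at least 250 bp of H2A.Z AP3 at their starts, and among genes with a call 43.5% had. H2A.Z WT was not listed there and came no closer than 15032 bp, although 13 H2A.Z WT regions lay within 50 kb. Across the genome, 286 of 5180 genes with H2A.Z AP3 at a start (5.52%, 95% Wilson interval 4.93 to 6.18, counting error only) had no H2A.Z WT there. In the other lists 2 genes had the combination of Klf2, Zfp281 with 75 bp and Zscan10 with 175 bp of H2A.Z AP3, both zinc finger genes of the ESC network and neither of them called at 1e-12.

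Klf4 lies at chr4:55540013-55545347 (minus strand), and none of its 4 starts had a region. Its nearest H2A.Z WT region was 16467 bp away, and 7 lay within 50 kb. Klf5 lies at chr14:99697910-99712624 (plus strand) with 1 annotated start and no region, and its nearest H2A.Z WT region was 36335 bp away, the only one within 50 kb. H3K27me3 was far from all 3 genes, at 617.807 kb from Klf2, 117.029 kb from Klf4 and 1126.635 kb from Klf5. Only 4.99% of all genes lay at least as far from H3K27me3 as Klf5.

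Zfp42 encodes REX1, a zinc finger protein whose loss from ESCs marks exit from the naive state. It lies at chr8:44380422-44392363 (minus strand) and had 1 region in its flank, of H2A.Z AP3, 2738 to 2912 bp before the start (chr8:44395101-44395275, 175 bp, of which 100 bp were in the 1e-12 list). It had the emptiest surroundings of H2A.Z WT among the members, with 0 regions within 50 kb of the start and the nearest 76588 bp away. H3K27me3 was 1626.588 kb away, a distance reached by 2.45% of all genes.

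The regions of H2A.Z AP3 at Nanog, Klf2 and Zfp42 shared no base with H2A.Z WT, and all 3 genes lie on chromosomes 6 and 8. On those chromosomes H2A.Z AP3 was listed at more starts, 43.6% of genes on chromosome 6 and 50.3% on chromosome 8. The other chromosomes that hold members had 17.5% to 23.2%. For H2A.Z WT the shares were 67.5% on chromosome 6 and 77.5% on chromosome 8, against 49.8% to 69.7% on those others. An H2A.Z AP3 region free of H2A.Z WT, in the gene with 10 kb of flank, was found at 587 of 2253 genes (26.1%) on chromosomes 6 and 8 and at 2524 of 20097 genes (12.6%) elsewhere. Among the members it was found at 3 of 3 and 0 of 7. The chromosomes were singled out after these calls were seen, so that split of the members was fixed by the choice. The part of the chromosomes in these calls was not tested. The CpG content of the 3 regions was 1.2 per 100 bp at Klf2, 0.571 at Zfp42 and 0 at Nanog, where H2A.Z AP3 regions free of H2A.Z WT had a median of 1.56 (n = 3944) and those that shared bases with it 3.25 (n = 10655).

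Tdgf1 encodes CRIPTO, the coreceptor through which NODAL signals. It lies at chr9:110842114-110848662 (minus strand) and had no region at its start. An H2A.Z WT region of 800 bp lay 7589 to 8388 bp before it (chr9:110856251-110857050), in an intron of the neighbour Lrrc2 and 2202 bp from the nearest start of Lrrc2. It had the same 800 bp in the 1e-12 list, shared none with H2A.Z AP3 or H3K27me3, and held 5.38 CpG per 100 bp. H2A.Z AP3 came no closer than 44039 bp and H3K27me3 no closer than 117687 bp.

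**Figure D2:**
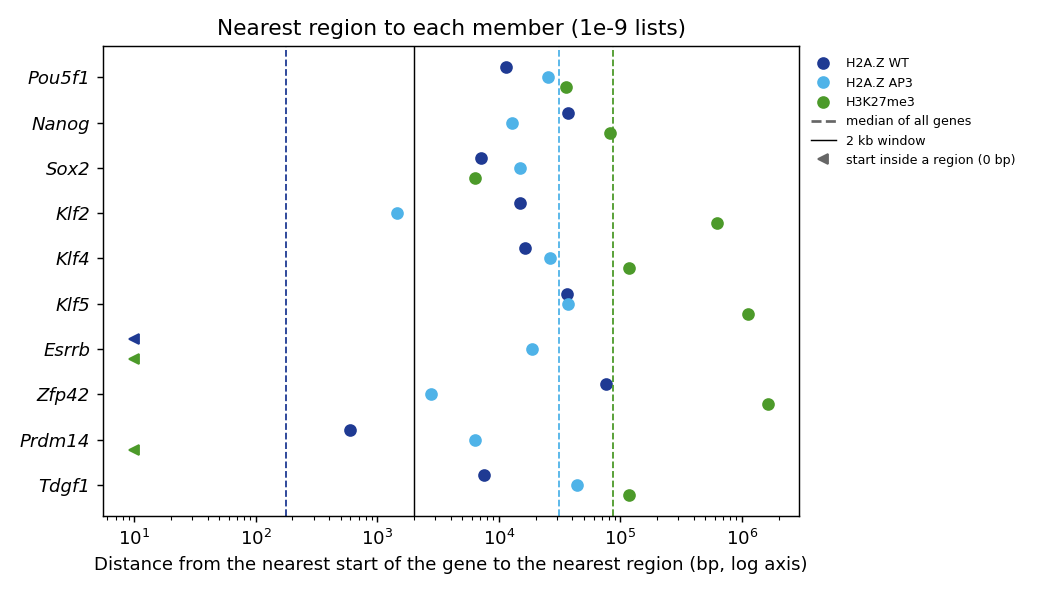
Distance in bp, on a log axis, from the nearest start of each member to the nearest region of the 3 libraries at 1e-9, with the median of all genes as a dashed line in the colour of each library and the 2 kb window as a solid line. For H2A.Z WT only Esrrb (inside a region) and Prdm14 (594 bp) lie left of 2 kb, and the others lie between 7077 bp at Sox2 and 76588 bp at Zfp42, all right of the median of 178 bp.

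The median distance from a start to H2A.Z WT was 1.32e+04 bp over the members and 178 bp over all genes. The other libraries did not share that direction, with medians of 1.67e+04 and 3.14e+04 bp for H2A.Z AP3, and of 9.96e+04 and 8.69e+04 bp for H3K27me3. The order for H2A.Z WT ran from Esrrb (0 bp) through Prdm14 (594), Sox2 (7077), Tdgf1 (7589), Pou5f1 (11396), Klf2 (15032), Klf4 (16467), Klf5 (36335) and Nanog (36857) to Zfp42 (76588). These distances have no replicate error, so the order of neighbours such as Klf5 and Nanog is that of these lists only. At 50 kb the members did not stand below the genome, with a median of 6 H2A.Z WT regions (range 0 to 13) against 4 over all genes.

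Esrrb encodes an orphan nuclear receptor that sustains naive ESCs, and among the members it had the most H2A.Z WT at its starts. Its H3K27me3 was close to that of Prdm14, with 2669 bp at the main start and 2782 bp at the start of Prdm14, and 3650 and 3700 bp in the genes with flank. The gene runs over chr12:87702067-87862578 (plus strand) with 5 annotated starts, of which the main one (chr12:87762594) is shared by 3 transcripts. At 1e-9 the starts held 1375 bp of H2A.Z WT, 0 bp of H2A.Z AP3 and 2908 bp of H3K27me3. As much H2A.Z WT was found at 9.83% of all genes, or 15.9% of those with a call, and as much H3K27me3 at 2.1%, or 11.6% of those with a call. At 1e-12 the lengths were 1050, 0 and 2708 bp. The starts were unlike each other: the main one had 1075 bp of H2A.Z WT and 2669 bp of H3K27me3, the start 60527 bp before it had 300 bp of H2A.Z WT and no H3K27me3, and those 48473 and 82765 bp after it had neither.

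Around the main start of Esrrb, H2A.Z WT lay in 3 blocks, at 444 to 643 bp before it, from 43 bp before to 606 bp after it (midpoint in an exon), and 907 to 1131 bp after it. H3K27me3 lay in a pair of blocks, of 800 bp ending 144 bp before the start and of 2550 bp from 132 to 2681 bp after it. Of the 1375 bp of H2A.Z WT at all starts of the gene, 900 bp (65.5%) lay in H3K27me3. All of these 900 bp were among the 1075 bp at the main start, since the 300 bp at the start 60527 bp before it had no H3K27me3. The blocks at and after the start held 7.85 and 8.44 CpG per 100 bp.

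Farther out, Esrrb had 9 more H2A.Z WT regions in the gene and its flank, 12 in all, of which 11 were in the 1e-12 list. The longest lay in introns, 975 bp at 18269 to 19243 bp and 625 bp at 25294 to 25918 bp before the main start. H2A.Z AP3 had 1 region here, 150 bp at 41794 to 41943 bp before the main start, wholly inside a 275-bp H2A.Z WT region and absent from the 1e-12 list. The 1e-12 list had instead 25 bp inside the 625-bp region, so no H2A.Z AP3 call at Esrrb was in both lists. H2A.Z AP3 covered 3.73% of the H2A.Z WT length in the gene with flank and H3K27me3 26.1%.

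**Figure D3:**
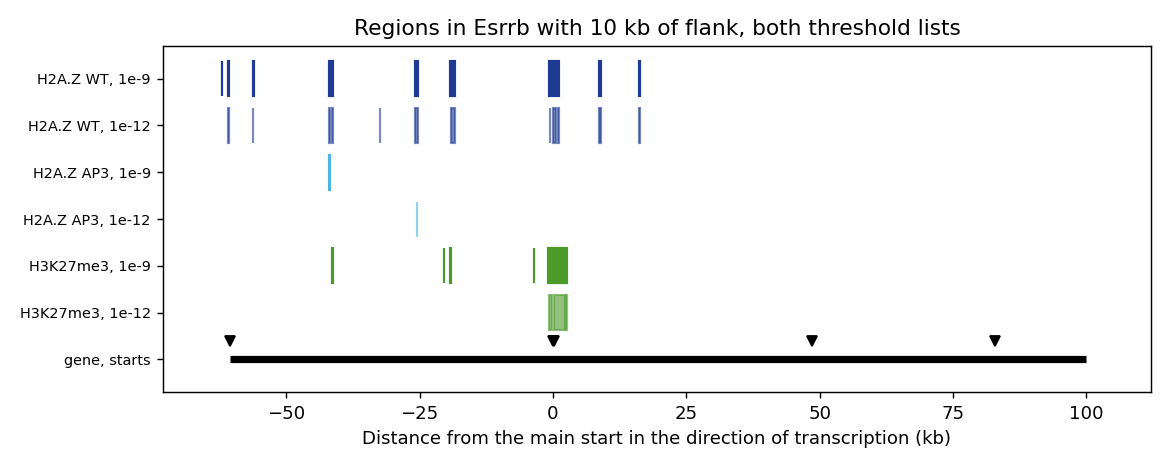
Regions over Esrrb and 10 kb each side, in kb from the main start along the direction of transcription, in 1 row for each library and threshold list (bars), above the gene (black line) and its starts (triangles). H2A.Z WT is spread from 62068 bp before to 16281 bp after the main start in the 1e-9 list and from 60868 bp before to 16231 bp after it in the 1e-12 list, H3K27me3 gathers at the main start, and H2A.Z AP3 has 1 short region per list, at different places.

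Prdm14 encodes a PR-domain zinc finger protein that represses differentiation signals in naive ESCs and works with PRC2. It lies at chr1:13103538-13117244 (minus strand) with a single start, whose 2 kb windows held 800 bp of H2A.Z WT, 0 bp of H2A.Z AP3 and 2782 bp of H3K27me3 at 1e-9. As much H2A.Z WT was found at 25.5% of all genes (41.4% of those called) and as much H3K27me3 at 2.38% (13.1% of those called). At 1e-12 the lengths were 675, 25 and 1407 bp. An H3K27me3 region of 3475 bp reached from 556 bp before to 2918 bp after the start, and the 1e-12 list broke it into shorter pieces. H2A.Z WT lay in 3 blocks inside it, at 594 to 893 bp (midpoint in an intron) and at 1219 to 1718 and 2569 to 2843 bp (midpoints in exons), all after the start. All 800 bp at the start (100%) were thus in H3K27me3. At Esrrb it was 900 of the 1075 bp at the main start, or 65.5% over all its starts.

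Prdm14 had H2A.Z WT at 2 more places, 550 bp at 21594 to 22143 bp after the start, beyond the end of the gene, and 175 bp at 6432 to 6606 bp before it. All 5 regions were in the 1e-12 list. H2A.Z AP3 had 100 bp at 6382 to 6481 bp before the start, 50 bp of it shared with H2A.Z WT. As at Esrrb, the 1e-12 list did not hold that region and had another of 25 bp, here 1869 to 1893 bp after the start.

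The 19 H2A.Z WT regions of the members were set beside all 78359 of the list. H3K27me3 lay on 9 of the 19 (47.4%), 5 at Esrrb, 3 at Prdm14 and 1 at Sox2, where 8.08% of all H2A.Z WT regions had it. H2A.Z AP3 lay on 2 of the 19 (10.5%), beside 12.9% of all. The 1e-12 list held 18 of the 19 (94.7%), beside 75.7% of all, and the median length was 275 bp, beside 250 bp. Regions at 1 gene are not independent, and Esrrb alone gave 12 of the 19.

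Other genes of the pluripotency pathways were read from lists chosen by role. Of 24 further genes of the extended network, 8 had H2A.Z WT at a start, 3 had H2A.Z AP3 and 3 had H3K27me3. These were 33.3%, 12.5% and 12.5%, against 61.7%, 23.2% and 18.2% of all genes. H2A.Z WT was longest at the nuclear receptor gene Nr0b1 (625 bp), the let-7 regulator Lin28a (425 bp) and the homeobox gene Gbx2 (411 bp), and none of its regions was listed at Dppa2, Dppa4, Dppa5a or Fgf4. Of the 32-base words in the start windows, the share found at 1 place in the genome was 59.5% at Dppa5a, 85.6% at Dppa4, 87.1% at Dppa2 and 98.8% at Fgf4, and the part of repeated sequence in these calls was not tested. H3K27me3 covered 2573 bp at the T-box gene Tbx3 and 2300 bp at Gbx2. The 15 genes of LIF, BMP and WNT signalling had H2A.Z WT at 11 genes (73.3%), H2A.Z AP3 at 4 (26.7%) and H3K27me3 at 3 (20%), near the 61.7%, 23.2% and 18.2% of all genes. Id2 (1050 bp), an inhibitor of bHLH factors, and Bmpr2 (1025 bp), a BMP receptor, had the longest H2A.Z WT. The WNT effector Tcf7l1, on chromosome 6, had the longest H2A.Z AP3 of the list (875 bp). Stat3, Socs3, Il6st and Id1 had no H2A.Z WT.

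Genes of the formative and primed states, which ESCs switch on as they leave the naive state, had other calls than most members. All 10 had H2A.Z WT at a start, with a median of 1288 bp, 9 had H3K27me3 and 0 had H2A.Z AP3. Among all genes H2A.Z WT was at 61.7%, H3K27me3 at 18.2% and H2A.Z AP3 at 23.2%. Foxd3 (1775 bp), Fgf5 (1475 bp) and Lef1 (1450 bp) had the most H2A.Z WT, and Otx2 had 4969 bp of H3K27me3. All 15 lineage regulators had H2A.Z WT (median 1425 bp) and H3K27me3 (median 3075 bp), and 9 had H2A.Z AP3. The lengths at Esrrb were close to those medians, although the length of the start windows differs between genes. Of 15 housekeeping genes 7 had H2A.Z WT, 2 had H2A.Z AP3 and 1 had H3K27me3. These counts describe lists of 10 to 24 genes, and no test between lists was made.

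**Figure D4:**
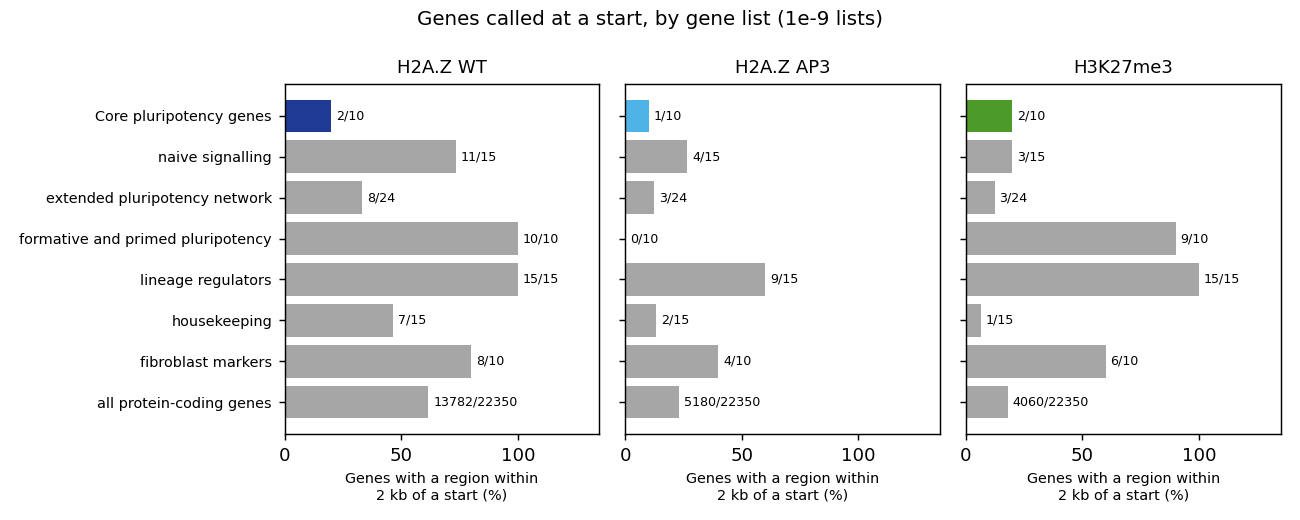
Percent of genes with a region within 2 kb of a start at 1e-9, by library (panels) and gene list (bars, the members coloured), with the number called over the number of genes beside each bar. For H2A.Z WT the members (2/10) have the shortest bar, and the formative and primed genes and lineage regulators reach 100%.

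H2A.Z is found mostly at starts rich in CpG, so the members were placed by the number of CpG within 500 bp of the main start. They ranged from 18 at Nanog to 116 at Klf4, with a median of 44.5 beside 41 over all genes. In deciles of all genes ordered by CpG, the share with H2A.Z WT rose from 4.71% in the lowest to 77.5% in the fifth, and the upper 5 deciles held 80.5% to 85.4%. Klf4 (116 CpG) and Klf5 (102) fell in the decile where 81.9% of genes had H2A.Z WT, Sox2 (86) in that with 81.2% and Klf2 (75) in that with 80.5%, and none of the 4 had it at a start. Pou5f1 (30), Zfp42 (28), Tdgf1 (31) and Prdm14 (34) shared the fifth, with 77.5%, and of these only Prdm14 was called. Nanog lay in the fourth, with 56.1%. Esrrb (55) lay in the seventh, with 83.8%, and was called.

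**Figure D5:**
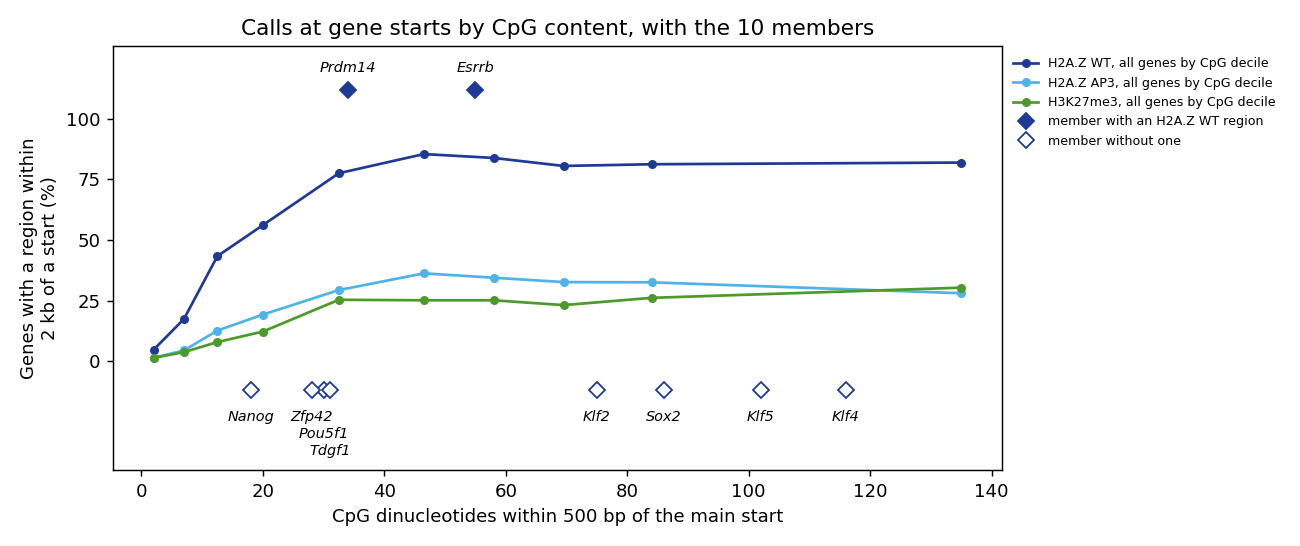
Percent of all genes with a region within 2 kb of a start at 1e-9 (points joined by lines, 1 colour per library), in deciles of genes ordered by the number of CpG within 500 bp of the main start, plotted at the middle of each decile. Diamonds above and below the scale place the members by their CpG number only: 2 with an H2A.Z WT region (filled) and 8 without (open), of which Klf2, Sox2, Klf5 and Klf4 lie where 80.5% to 81.9% of all genes have one.

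Sequence that cannot be aligned would leave gaps in any list. The share of 32-base words in the start windows that occur at 1 place in the genome was 88.3% to 99.9% over the members (median 96.3%), lowest at Zfp42, Pou5f1 (89.3%) and Nanog (90.8%), beside a range of 59.5% to 100% and a median of 98% over the 89 genes of the other lists. Recognition letters of factors made by members, and of STAT3, which acts downstream of LIF, were also counted on both strands of the genes with flank: the composite above, the octamer ATGCAAAT (whose first bases can be the last of the composite), TCAAGGTCA for ESRRB, GGGNGTGGC for the KLF factors, and TTCCNGGAA for STAT3. The 5 searches gave 97 matches over 430 kb, of which 1 lay in an H2A.Z WT region (GGGNGTGGC at Sox2), 0 in H2A.Z AP3 and 0 in H3K27me3. H2A.Z WT covered 1.75% of the length searched. H2A.Z AP3 covered at most 250 bp at any member, and H3K27me3 covered 1225 bp at Sox2, 3650 bp at Esrrb and 3700 bp at Prdm14. Few matches could fall in lengths so short, and whether matches avoid the regions was not tested. Within 2 kb of the main start, GGGNGTGGC was found at 5 members (Pou5f1, Klf2, Klf4, Klf5 and Zfp42) and 24.4% of all genes, ATGCAAAT at 3 members (Klf5, Zfp42 and Tdgf1) and 18.6%, TCAAGGTCA at 0 members and 9.84%, and TTCCNGGAA at 0 members and 11.7%.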

How the data were processed

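ChIP-Seq of mouse ESCs gave 1 library each of H3K27me3, H2A.Z AP3 and H2A.Z WT, grouped by the genotype and antibody labels. Per the methods, the authors sequenced reads on an Illumina Genome Analyzer II, aligned them to mm9 with Bowtie 0.12.3 allowing 2 mismatches, and for H2A.Z extended reads to 200 bp, counted them in bins of 25 bp and kept bins past a Poisson threshold of 1e-9 with at least 5-fold enrichment over input. The methods take H3K27me3 peaks from earlier work, and whether the same calling made the H3K27me3 lists is not given in the sources used here. The deposited lists hold region starts and ends with no height, fold, p-value or count, so read depth is unknown. The origin of the 1e-12 lists and the treatment of reads with several matches are not given in the sources used here. The labels and the methods name different H3K27me3 antibodies.

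Regions were intersected (at least 1 bp) with windows of 2 kb each side of every transcript start, and with genes extended by 10 kb, in GENCODE vM1 on mm9. The main start is the one shared by most protein-coding transcripts, and the most upstream of ties. At Pou5f1, Nanog, Sox2 and Klf4 each start had 1 transcript, so the most upstream start was used. Calls were also read from the 1e-12 lists, other windows and other starts. Motifs, CpG and 32-base words were read from the mm9 genome, and primers from the study's supplement. Analyses used Python 3.11.15, NumPy 2.4.6 and SciPy 1.17.1, figures Matplotlib 3.10.9, and the overlap code was tested on simulated data. All 10 members are named. From the other lists were named the genes with most H2A.Z WT, those with H2A.Z AP3 or H3K27me3 and those with no H2A.Z WT, up to 6 each, and neighbours of members. Of 90 list genes 89 were found, and Sox1 was not analysed here. The members and lists were chosen with earlier results of these data known.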

Additional observations from a re-analysis of the deposited data

How the results depend on the processing

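No paired analysis was possible because each group had 1 library. Of 63 alternatives to the 6 counts over the members, 55 stayed within 1.5 times. The 27 alternatives to the medians of covered length all gave 0 bp, which most members being at 0 ensures, and they say nothing about stability. H2A.Z WT was listed at the starts of 2 members under all 12 alternatives tried. H2A.Z AP3 was listed at 1 member, but at 2 in the 1e-12 list, 2 in the union of both lists, 2 with windows of 5 kb, 0 with windows of 1 kb, and 0 of the 7 members left without chromosomes 6 and 8, an alternative added after seeing the data. H3K27me3 was listed at 2 members, but at 1 with the most upstream start of each gene alone, since the upstream start of Esrrb had none. The 5 H2A.Z AP3 regions in genes with flank became 3 with a flank of 5 kb and 2 without chromosomes 6 and 8. Counts with flank ranged from 14 to 28 for H2A.Z WT and from 8 to 14 for H3K27me3. Depth is unknown and limits every statement that a region was not listed.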
